A study of Mus musculus with 6 samples.

Results

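The genes described here encode the chains of antibodies. They are the 85 genes, of 28529 in the count table of the study, whose name begins with Igh, Igk or Igl followed by a letter for a constant, joining or variable segment, Ighmbp2 being left out. The names of 116 further immunoglobulin genes were blank in that table, so that these fell outside the rule, and they are given separately below. The members were proposed with the difference between the genotypes already known. All values of Maf1-/- against wild-type tissue in these genes are therefore a description, without a test, and cannot count as support for the choice.

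The study asked what the whole-body loss of MAF1, a repressor of RNA polymerase III, changes in the metabolism of mice. As part of it, RNA of fat tissue was sequenced, and the paper reported no significant and reproducible change in protein-coding genes there. The tissue was epididymal fat (eWAT), a white depot of the abdomen, and came from 3 Maf1-/- mice, which lack the gene in the whole body, and from 3 wild-type (WT) mice. All were males of 22 to 24 weeks, labelled C57BL/6 (C57Bl/6J in the methods of the study), kept on breeder chow and fasted overnight, and neither group received any other treatment. Each mouse gave 1 directional library of total RNA depleted of ribosomal RNA, called KO1, KO2 and KO3 or WT1, WT2 and WT3 after genotype and replicate number.

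An antibody is built of heavy chains and of light chains of the kappa or lambda type. In each developing B cell a variable (V) and a joining (J) segment, with a diversity segment in the heavy chain, are joined on the chromosome, and the transcript of the joined segments is spliced to a constant (C) gene. B cells first make IgM from the C gene Ighm, and after class switching IgG, IgA or IgE. Plasma cells, the end stage of B cells, devote much of their RNA to these chains, and fat tissue is known to hold both cell types. In tissue of many cell types, a change in the number of such cells and a change in the RNA of each cell cannot be told apart.

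The members comprised 7 C genes, 9 J segments and 69 V genes. The heavy chain locus on chromosome 12 held 5 C genes, 4 J segments and 19 V genes, the kappa locus on chromosome 6 held 1, 5 and 47, and the lambda locus on chromosome 16 held 1 C gene and 3 V genes. Igha, Ighd and Ighe, the C genes of IgA, IgD and IgE, would follow the name rule but were not among the members, so that they were not analysed here.

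The V genes share a sequence feature that the rule did not use. The octamer ATGCAAAT, or its reverse complement ATTTGCAT, is known as the binding site of octamer factors in front of V genes. It was searched for on both strands from 250 bases before to 50 bases after the annotated start of each gene, which was the first coding base in 68 of the 69 member V genes. It was found in front of 48 of these 69 V genes (69.6%), against 386 of 22380 protein-coding genes (1.72%). By locus it was found in front of 16 of 19 heavy, 29 of 47 kappa and 3 of 3 lambda V genes, and also in front of 86 of the 114 V genes without a name (75.4%). None of the 7 C genes held it. In the strand of the gene, all 16 heavy V genes with a match carried ATGCAAAT, with a median first base at -122, and all kappa and lambda V genes with a match carried ATTTGCAT, with medians of -106 and -105. A match is a description of letters and not a site of binding. To show this difference in orientation, the stretch from 150 to 61 bases before the start is printed for the 3 heavy, 3 kappa and 2 lambda V genes with the most counts, 5′ to 3′ in the strand of the gene, in build mm9. Capitals mark the octamer.
Ighv14-4 (chr12:115415134-115415223, minus strand): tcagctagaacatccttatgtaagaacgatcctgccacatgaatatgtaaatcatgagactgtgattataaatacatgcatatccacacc
Ighv1-18 (chr12:115921337-115921426, minus strand): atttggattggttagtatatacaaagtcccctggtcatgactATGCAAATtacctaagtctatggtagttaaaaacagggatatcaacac
Ighv6-3 (chr12:115630441-115630530, minus strand): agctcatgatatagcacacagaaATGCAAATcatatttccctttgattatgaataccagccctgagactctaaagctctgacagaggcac
Igkv8-21 (chr6:70265507-70265596, minus strand): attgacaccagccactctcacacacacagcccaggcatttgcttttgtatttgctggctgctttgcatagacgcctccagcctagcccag
Igkv13-84 (chr6:68889446-68889535, plus strand): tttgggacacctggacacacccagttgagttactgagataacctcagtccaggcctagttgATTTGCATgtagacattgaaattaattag
Igkv4-61 (chr6:69367233-69367322, minus strand): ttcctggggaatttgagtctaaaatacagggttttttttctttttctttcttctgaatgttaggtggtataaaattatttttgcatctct
Iglv1 (chr16:19085614-19085703, minus strand): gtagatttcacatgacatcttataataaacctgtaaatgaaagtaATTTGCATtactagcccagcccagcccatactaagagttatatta
Iglv2 (chr16:19260998-19261087, minus strand): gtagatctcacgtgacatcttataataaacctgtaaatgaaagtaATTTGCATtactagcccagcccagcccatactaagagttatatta
Ighv14-4, Igkv8-21 and Igkv4-61 had no exact match in the whole window searched, which says only that these letters are not there.

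The libraries held between 7207476 and 15971900 counts in genes. Maf1, the deleted gene, had 12.2, 12.1 and 22.9 CPM (counts per 1000000 counts of the library) in KO1 to KO3, against 54.5, 70.1 and 67.6 CPM in WT1 to WT3, with a log2 fold change of -2.00 (SE 0.28). The groups did not overlap, although the adjusted p was 1.00 in the quasi-likelihood test of edgeR over 16101 genes, as it was for all genes. KO1 and WT1 lay apart from the other libraries on the first principal component, which held 60.7% of the variance. The adipocyte genes Adipoq, Plin1 and Fabp4 had 397 CPM or more in every library. Genes of epididymis and testis summed to 818, 9685 and 8638 CPM in Maf1-/- and to 20.3, 6934 and 4766 CPM in WT libraries, and 10 smooth muscle genes summed to between 872 and 6850 CPM in Maf1-/- and between 863 and 1120 CPM in WT tissue.

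Immunoglobulin counts were higher in every Maf1-/- library than in any WT library when all members were summed. The sum was 467, 509 and 373 CPM in KO1 to KO3, against 310, 258 and 189 CPM in WT1 to WT3. The means were 449.7 ± 69.9 CPM in Maf1-/- and 252.0 ± 60.8 CPM in WT tissue (SD, n = 3 each), a ratio of 1.78. Within replicate numbers the log2 ratio lay between 0.59 and 0.98. The immunoglobulin genes without a name summed to 55.8, 83.0 and 62.2 CPM in Maf1-/-, against 47.5, 36.9 and 26.3 CPM in WT libraries, again without overlap.

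Among the members, the ratio differed between kinds of segment. C genes summed to 409, 401 and 307 CPM in KO1 to KO3, against 287, 224 and 175 CPM in WT1 to WT3, a ratio of 1.63. V genes summed to 42.5, 80.3 and 51.8 CPM in KO1 to KO3, against 17.4, 25.9 and 10.4 CPM in WT1 to WT3, a ratio of 3.25. J segments summed to 15.8, 27.6 and 13.6 CPM in KO1 to KO3, against 5.50, 7.70 and 3.09 CPM in WT1 to WT3, a ratio of 3.50. On library totals the genotypes did not overlap in any of these 3 sums. With TMM-scaled library sizes the C sums overlapped, at 296.9 CPM in KO3 and 298.8 CPM in WT1, while the V and J sums did not. V genes without a name were then added, a choice made after seeing the data. This V sum was 97.5, 150.5 and 111.6 CPM in KO1 to KO3, against 63.2, 61.5 and 35.7 CPM in WT1 to WT3. Its ratio was 2.24, below that of the V members alone, and the genotypes did not overlap.

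**Figure D1:**
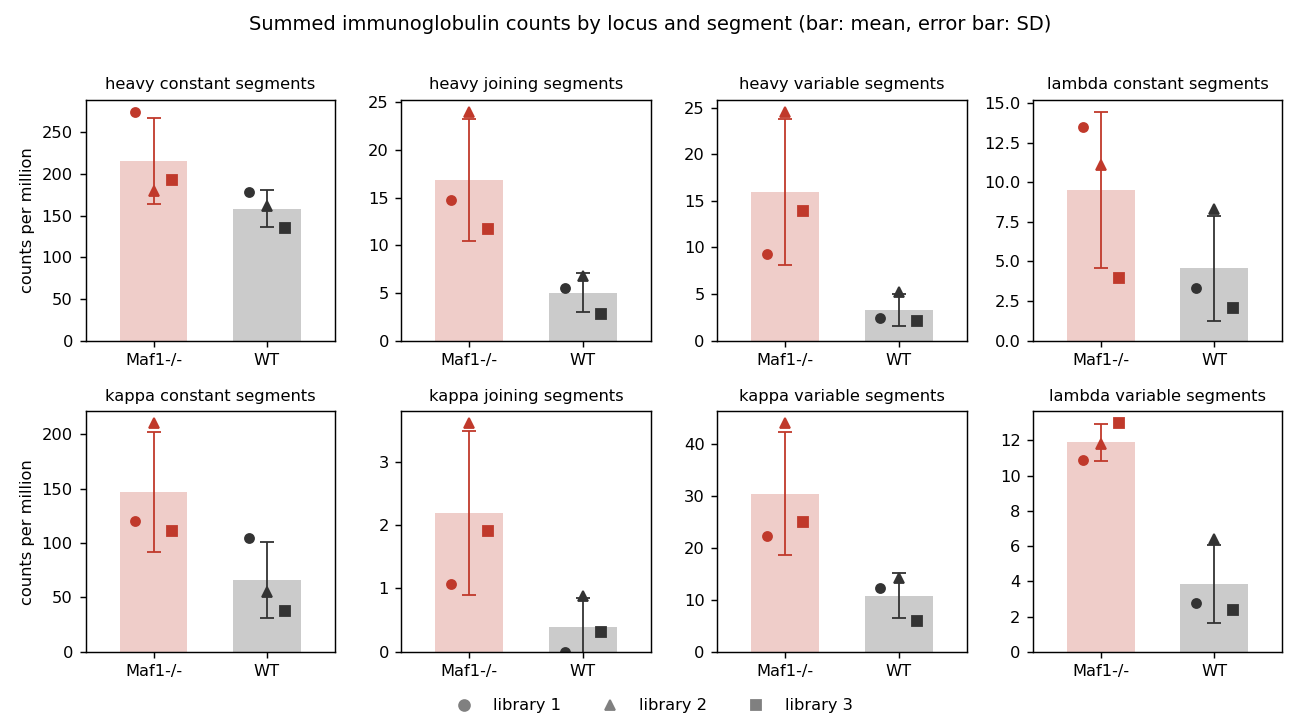
Summed CPM of the heavy, kappa and lambda C, J and V members in each library. Points are libraries, bars are means and error bars are SD over 3 mice. On library totals, lambda C is the sum in which a Maf1-/- library (KO3, 3.97 CPM) lies within the WT range (2.06 to 8.33 CPM). Heavy C is close to overlap, at 179.7 CPM in KO2 and 178.8 CPM in WT1. With TMM-scaled library sizes heavy C overlaps too, at 172.9 CPM in KO2 and 186.2 CPM in WT1, as does kappa C.

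By locus, the heavy chain members summed to 248.5 ± 44.0 CPM in Maf1-/- and 166.6 ± 24.0 CPM in WT tissue, a ratio of 1.49. The kappa members summed to 179.9 ± 67.9 CPM in Maf1-/- and 77.0 ± 37.0 CPM in WT tissue, a ratio of 2.34, and the lambda members to 21.4 ± 3.9 CPM in Maf1-/- and 8.41 ± 5.52 CPM in WT tissue, a ratio of 2.54 (SD, n = 3 each). Ighm held between 55.6% and 74.4% of the heavy chain C counts in Maf1-/- and between 70.1% and 95.8% in WT libraries. All members without Ighm summed to 262.7, 409.4 and 261.1 CPM in Maf1-/-, against 184.5, 119.1 and 59.3 CPM in WT libraries, a ratio of 2.57. This sum was not among the measures planned beforehand. Of the mean difference of 197.7 CPM between the genotypes, Igkc accounted for 41.2%, Ighg for 20.3%, Ighg2c for 9.14% and Ighm for 3.86%.

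Ighm (chr12:114659078-114660941, minus strand) encodes the mu chain of IgM. It had 204.4, 99.9 and 111.8 CPM in KO1 to KO3, against 125.3, 138.5 and 129.4 CPM in WT1 to WT3. The Maf1-/- libraries lay on either side of the WT libraries, with KO1 alone above them. The log2 fold change was 0.14 (SE 0.34), and it was -0.35 without KO1.

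The gamma genes, which encode the heavy chains of IgG, differed more. Ighg (ENSMUSG00000076613, chr12:114544600-114546144) lies between Ighg2c and Ighg1, where the RefSeq gene order of build GRCm38.p6 has Ighg2b. Ighg had 28.7, 53.0 and 62.0 CPM in KO1 to KO3, against 9.49, 9.64 and 3.89 CPM in WT1 to WT3, with a log2 fold change of 2.64 (SE 0.43). Each Maf1-/- library thus lay well above each WT library, and the log2 fold change stayed between 2.34 and 3.09 under the 13 alternative settings. Ighg2c (chr12:114523536-114527141), the IgG2c gene carried by C57BL/6 mice, had 39.4, 17.3 and 12.8 CPM in Maf1-/-, against 6.33, 7.33 and 1.59 CPM in WT libraries (log2 fold change 2.26, SE 0.70, and 1.52 without KO1). Its groups did not overlap either, with KO1 the highest library here and the lowest Maf1-/- library for Ighg.

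Ighg1 (chr12:114567187-114568734), which encodes the chain of IgG1, was rare. It had 22, 43 and 10 counts in KO1 to KO3, against 3, 20 and 0 counts in WT1 to WT3 (log2 fold change 2.45, SE 1.29), and KO3 lay below WT2 in CPM. The log2 fold change was 1.43 without KO2 and 4.35 without WT2. The 0 in WT3 allows up to 3 counts, by counting error only. Ighg3 (chr12:114597876-114599443), the gene of IgG3, went the other way because of 1 library. It had 7, 25 and 71 counts in KO1 to KO3, against 449, 70 and 3 counts in WT1 to WT3. WT1 stood far above all others, the log2 fold change was -2.22 (SE 1.53), and it was 0.47 without WT1 and -0.61 when the replicate numbers entered the fit as blocks.

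**Figure D2:**
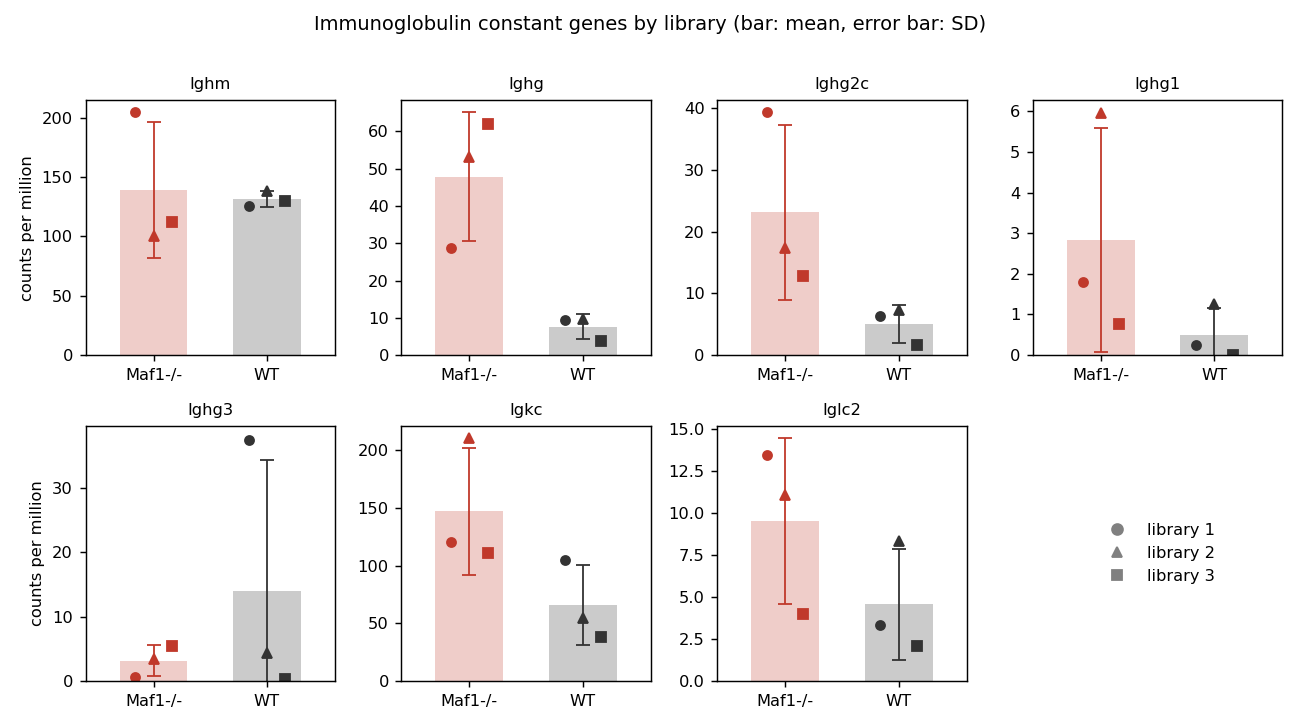
CPM of the 7 constant genes in each library, with means as bars and SD over 3 mice as error bars. Ighg and Ighg2c do not overlap between the genotypes, Ighm has a mean of 138.7 CPM in Maf1-/- and 131.1 CPM in WT tissue, and Ighg3 is high in WT1 alone (37.4 CPM).

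Together the 4 gamma genes had 70.5, 79.8 and 80.9 CPM in KO1 to KO3, against 53.5, 22.6 and 5.71 CPM in WT1 to WT3. The Maf1-/- libraries were close to each other, while the WT libraries spread widely. As a share of heavy chain C counts the gamma genes made up 25.6%, 44.4% and 42.0% in KO1 to KO3, against 29.9%, 14.0% and 4.23% in WT1 to WT3. The mean share was 37.3 ± 10.2% in Maf1-/- and 16.1 ± 13.0% in WT tissue (SD, n = 3 each), and the groups overlapped. KO1 (95% Wilson interval 24.2 to 27.1%) lay below WT1 (28.0 to 31.9%), and these intervals cover counting error only. Without the libraries numbered 1 the difference was 34.1 percentage points in place of 21.3.

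The gamma counts were also made up differently from mouse to mouse. Ighg took 40.8%, 66.4% and 76.6% of them in KO1 to KO3, against 17.8%, 42.7% and 68.1% in WT1 to WT3. Ighg2c took 55.9% in KO1 and 32.4% in WT2, its highest share in each genotype, and Ighg3 took 69.9% in WT1. No gamma gene had a share that separated the genotypes.

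**Figure D3:**
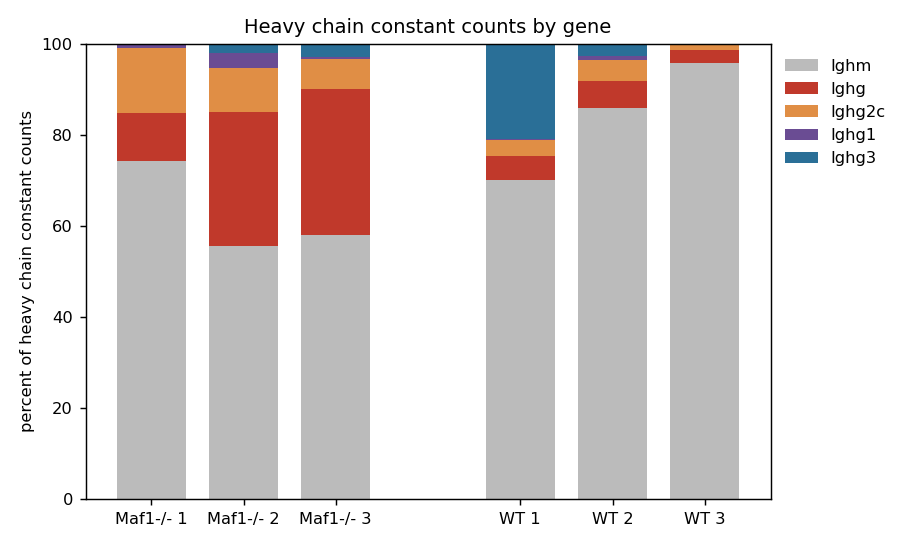
Percent of heavy chain constant counts that belonged to Ighm and to each gamma gene, for each library. The gamma share reaches 44.4% in KO2 and 42.0% in KO3 and is lowest in WT3 (4.23%), with Ighg3 forming most of it in WT1.

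Igkc (chr6:70676429-70676751, plus strand), the constant gene of the kappa light chain, had 120.4, 210.6 and 110.8 CPM in KO1 to KO3, against 104.8, 54.6 and 38.0 CPM in WT1 to WT3. The log2 fold change was 1.16 (SE 0.45), and 1.79 without both libraries numbered 1. KO3 was above WT1 by a small margin, and with TMM-scaled library sizes it was below it, at 107.0 CPM in KO3 and 109.2 CPM in WT1. Iglc2 (chr16:19198494-19200444), a constant gene of the lambda chain, had 13.5, 11.1 and 3.97 CPM in Maf1-/-, against 3.33, 8.33 and 2.06 CPM in WT libraries, with overlap (log2 fold change 1.12, SE 0.67, and 1.83 without WT2). The kappa share of Igkc and Iglc2 counts was 93.8 ± 3.5% in Maf1-/- and 92.8 ± 5.4% in WT tissue (SD, n = 3 each), a difference smaller than the spread between mice.

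Levels of the C genes were compared per kilobase of exon, since Igkc is short. Igkc reached 456.0 ± 170.5 CPM per kilobase in Maf1-/- and 203.7 ± 107.7 in WT tissue, Ighm 101.5 ± 41.8 in Maf1-/- and 95.9 ± 4.9 in WT tissue, and Ighg 47.4 ± 17.0 in Maf1-/- and 7.60 ± 3.25 in WT tissue (SD, n = 3 each). Igkc was thus the most abundant C gene per length in all 6 libraries, and Ighm the second. Light chain C genes per kilobase were 1.86, 4.48 and 2.19 times the heavy chain C genes in KO1 to KO3, against 2.29, 1.49 and 1.21 times in WT1 to WT3, with overlap.

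The 4 heavy J segments, which lie in a cluster between the V genes and Ighm and are part of the joined transcript, all had higher means in Maf1-/- tissue. Ighj4 had 63, 38 and 56 counts in KO1 to KO3, against 15, 36 and 11 counts in WT1 to WT3, and Ighj3 had 34, 47 and 33 counts in KO1 to KO3, against 5, 21 and 4 counts in WT1 to WT3. In CPM neither overlapped between genotypes, and the log2 fold changes were 1.78 (SE 0.47) for Ighj4 and 2.51 (SE 0.71, and 3.35 without WT2) for Ighj3. Ighj1 (1.35, SE 0.59) overlapped, with KO3 below WT1, and Ighj2 (2.12, SE 0.56) did not. J segments hold letters for a conserved Trp-Gly motif, searched here as TGGGGNNNNGGNAC in the heavy chain. The annotated interval of each heavy J segment is shown with these letters in capitals because the interval of Ighj2 did not hold them. The counts of Ighj2 are those of this interval and are not read here as joined transcript, although they are included in the J sums.
Ighj1 (chr12:114667992-114668044, minus strand): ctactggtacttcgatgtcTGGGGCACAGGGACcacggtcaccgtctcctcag
Ighj2 (chr12:114667725-114667778, minus strand): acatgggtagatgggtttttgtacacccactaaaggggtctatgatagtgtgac
Ighj3 (chr12:114667296-114667343, minus strand): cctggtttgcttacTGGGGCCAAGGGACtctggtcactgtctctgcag
Ighj4 (chr12:114666725-114666778, minus strand): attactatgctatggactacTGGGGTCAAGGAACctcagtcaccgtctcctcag
The motif was searched on both strands and was present in the first 50 bases of 0.0849% of protein-coding genes. The 5 kappa J segments had between 2 and 33 counts over all libraries, and each had a higher mean in Maf1-/- tissue. Igkj1 was the only kappa J segment whose genotypes did not overlap, with 2, 6 and 8 counts in Maf1-/-, against 0, 2 and 1 counts in WT libraries.

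Most V genes had few reads: the 69 members had between 1 and 374 counts over the 6 libraries, 19 of them fewer than 10. The mean was higher in Maf1-/- tissue for 53 V genes and lower for 16. By locus it was higher for 12 of 19 heavy, 38 of 47 kappa and 3 of 3 lambda V genes.

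Among the heavy V genes, Ighv14-4 had the most counts, with 32, 60 and 16 in KO1 to KO3, against 7, 2 and 3 in WT1 to WT3 (log2 fold change 3.64, SE 0.96, but 2.67 without KO2 and 4.45 without WT1). Ighv6-3 had 11, 18 and 53 counts in Maf1-/-, against 0, 4 and 5 counts in WT libraries (3.46, SE 1.01, and 4.15 without WT3), and Ighv3-6 had 14, 14 and 18 counts in Maf1-/-, against 2, 5 and 0 counts in WT libraries (3.11, SE 0.91, and 3.97 without WT2). These were the largest log2 fold changes among the members that passed the filter, and none of the 3 overlapped between the genotypes. Ighv1-18 had 9, 49 and 41 counts in KO1 to KO3, against 0, 12 and 3 counts in WT1 to WT3, and WT2 lay just above KO1 in CPM. Ighv6-6 was led by 1 library of each genotype, with 1, 5 and 33 counts in Maf1-/-, against 0, 23 and 0 counts in WT libraries.

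Several of the kappa V genes with the most counts were led by 1 library. Igkv13-84 had 0, 0 and 3 counts in Maf1-/-, against 88, 0 and 0 counts in WT libraries, so that nearly all its reads came from WT1. Igkv8-21 had 13, 8 and 5 counts in KO1 to KO3, against 5, 59 and 14 counts in WT1 to WT3 (log2 fold change -0.97, SE 0.88, and 0.17 without WT2). It was beside Ighg3 the only other gene below 0 among the members that passed the filter. Igkv4-61 was led by KO3, with 4, 12 and 63 counts in Maf1-/-, against 2, 6 and 1 counts in WT libraries, and Igkv2-137 by KO1 and KO2, with 24, 35 and 1 counts in Maf1-/-, against 6, 7 and 0 counts in WT libraries. Igkv8-30 was more even, with 18, 15 and 16 counts in Maf1-/-, against 4, 12 and 2 counts in WT libraries and no overlap in CPM (1.92, SE 0.67, and 2.62 without WT2). The 16 genes of the Igkv4 family summed to 4.90, 9.85 and 13.8 CPM in Maf1-/-, against 1.08, 2.82 and 2.38 CPM in WT libraries. Igkv4-63, with 6, 6 and 29 counts in KO1 to KO3, and Igkv4-74, with 3, 4 and 32, had 0 counts in all WT libraries; they were singled out after their values were seen.

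Among the lambda V genes, Iglv1 (chr16:19085110-19085553) was the member V gene with the most counts of all loci. It had 65, 82 and 146 counts in KO1 to KO3, against 16, 49 and 16 counts in WT1 to WT3, with a log2 fold change of 2.30 (SE 0.49) and no overlap in CPM. Iglv2 had 47, 1 and 22 counts in KO1 to KO3, against 17, 52 and 9 counts in WT1 to WT3 (0.19, SE 1.04, and -0.94 without KO1), and was at 1 count in KO2, the library where Iglv1 reached 11.4 CPM. Iglv3 had 21, 2 and 2 counts in Maf1-/-, against 0, 1 and 5 counts in WT libraries. Iglv1 and Iglv2 are close copies: 29.7% of the 50-base stretches of Iglv1 and 30.0% of those of Iglv2 occur in another immunoglobulin gene. Over the V members the median of this share was 6.30%, and it was 6.88% for Ighg, 6.10% for Ighg2c and 0 for Ighm and Igkc. Reads from shared stretches could be lost or assigned to the wrong gene.

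**Figure D4:**
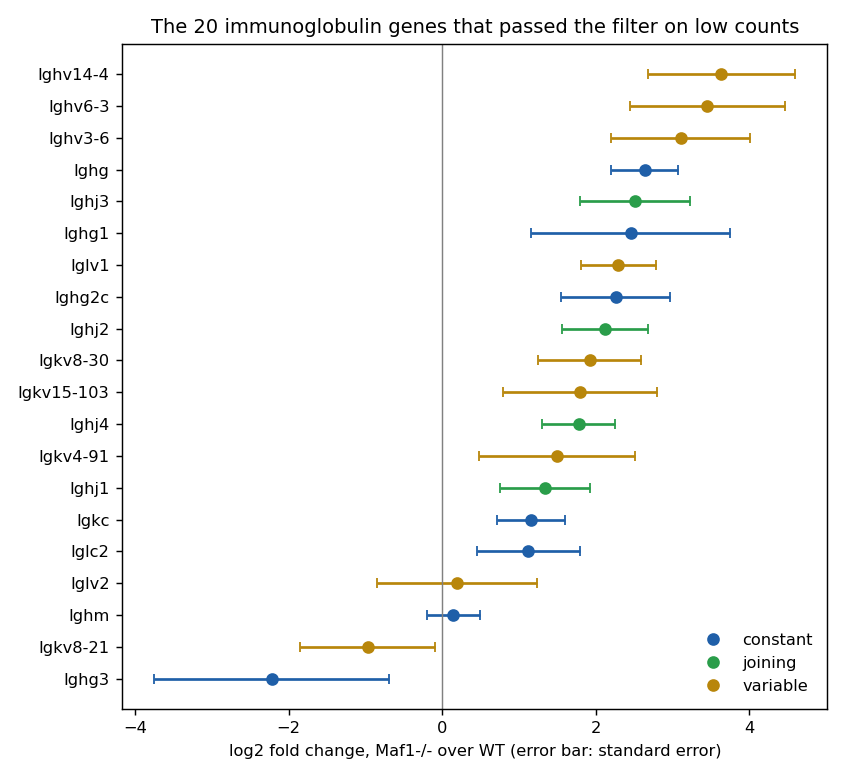
Log2 fold change, Maf1-/- over WT, of the 20 members that passed the filter on low counts, with its standard error and colored by kind of segment. Ighv14-4 lies highest at 3.64 and Ighg3 lowest at -2.22, and Ighm lies at 0.14.

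Of the 85 members, 20 passed the filter, which asks for enough counts in at least 3 libraries and can therefore be passed by high values in Maf1-/- mice alone. They were the 7 C genes, the 4 heavy J segments and 9 V genes. Their log2 fold change was above 0 in 18, with a median of 1.86, beside 0.01 over all 16101 genes tested. The quasi-likelihood test of edgeR called 0 of them (0% of all genes tested), DESeq2 called Ighg and Iglv1 higher (0.0497% of genes) and 0 lower (0.0373%), and limma voom called 0. Without adjustment 11 were higher and 0 lower at p under 0.05, beside 0.963% and 0.913% of all genes. All Maf1-/- libraries lay above all WT libraries in 12 of the 20 (2.12% of genes that passed the filter) and in 20 of the 85 (2.21% of all genes). They lay below in 1 of the 85 (3.72%), Igkv12-98, which had 1 count in Maf1-/- and 14 counts in WT libraries. With TMM-scaled sizes 21 of the 85 lay above (2.79% of all genes), 19 of them the same genes, and 1 lay below (2.81%). Since the members were chosen on this contrast, nothing is read from these shares.

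The number of V counts per 100 C counts was 10.4, 20.0 and 16.8 in KO1 to KO3, against 6.07, 11.6 and 5.93 in WT1 to WT3. WT2 lay above KO1. By locus, among the members alone, the heavy chain ratios separated the genotypes and the kappa ratio did not. Heavy V counts per 100 heavy C counts were 3.39, 13.7 and 7.22 in KO1 to KO3, against 1.35, 3.26 and 1.59 in WT1 to WT3, and heavy J counts per 100 heavy C counts were 5.38, 13.4 and 6.07 in KO1 to KO3, against 3.07, 4.24 and 2.06 in WT1 to WT3, both without overlap. Kappa V counts per 100 Igkc counts were 20.6 ± 2.0 in Maf1-/- and 17.8 ± 7.5 in WT tissue (SD, n = 3 each), a difference within the spread of the WT mice. When V genes without a name were added, the heavy V ratio was 12.7, 35.8 and 21.2 in KO1 to KO3, against 13.2, 14.3 and 9.16 in WT1 to WT3, so that KO1 lay below WT1 and WT2 and the separation was lost. The kappa V ratio was then 42.8, 35.3 and 52.1 in KO1 to KO3, against 35.1, 58.8 and 55.1 in WT1 to WT3, and its mean was lower in Maf1-/- mice, the reverse of the members alone. These additions were chosen after seeing the data. With them, all V counts per 100 C counts of the members were 32.6 ± 7.6 in Maf1-/- and 23.3 ± 3.7 in WT tissue, with overlap.

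Kappa V counts were less concentrated on few genes in Maf1-/- mice by 1 of 2 measures. The effective number of genes, which is the number of equally used genes that would give the same concentration, was 21.0, 15.3 and 13.8 for kappa V members in KO1 to KO3, against 2.69, 10.2 and 9.92 in WT1 to WT3, without overlap. Drawn down to 74 kappa V counts per library, 24.9, 21.4 and 25.3 genes would be seen in Maf1-/-, against 14.9, 22.7 and 20.0 genes in WT libraries, which overlapped. The heavy V members gave 5.92, 4.50 and 5.29 effective genes in Maf1-/-, against 4.06, 7.52 and 6.94 in WT libraries, and overlapped.

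Of the genes outside the name rule, Igkv14-126, a kappa V gene, had the most counts. It had 23, 22 and 44 counts in KO1 to KO3, against 147, 78 and 94 counts in WT1 to WT3, so that here all Maf1-/- libraries were lower (log2 fold change -1.58, SE 0.47). Iglc3, a lambda C gene, had 9, 92 and 31 counts in Maf1-/-, against 21, 21 and 13 counts in WT libraries, and the heavy V gene Gm16814 had 31, 9 and 12 counts in Maf1-/-, against 57, 24 and 11 counts in WT libraries, both with overlap. Of all 116 such genes, 89 had a higher mean in Maf1-/- tissue and 27 a lower one.

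Igj encodes the J chain, which links IgM and IgA into polymers and is made by plasma cells. It is no member, since its name does not follow the rule, and it had 38.7, 101.7 and 51.0 CPM in KO1 to KO3, against 14.5, 27.3 and 12.2 CPM in WT1 to WT3. All Maf1-/- libraries lay above all WT libraries, and the log2 fold change of 1.84 (SE 0.43) had an unadjusted p of 0.00421 and an adjusted p of 1.00 in the edgeR fit of all 6 libraries. It did not pass, and it lay between 1.38 and 2.22 under the 13 alternative settings.

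Taken as a list, the other plasma cell genes did not share this difference. Of the 19 others tested 0 were called, 9 lay above 0 and 10 below, and the median log2 fold change was -0.03. Mzb1, a chaperone of antibody assembly, had 0.41, 6.80 and 1.15 CPM in Maf1-/-, against 0.67, 0.81 and 0.71 CPM in WT libraries, with KO2 far above the rest. Sdc1, a surface proteoglycan of plasma cells that other cells also carry, had 29.8 ± 4.5 CPM in Maf1-/- and 33.9 ± 4.0 CPM in WT tissue, and Tnfrsf17, the receptor BCMA, was under 1.25 CPM in every library (SD, n = 3 each). Pim2, a kinase gene, had a log2 fold change of -0.74 (SE 0.45) and passed no threshold. Without Igj the list summed to between 712 and 807 CPM in Maf1-/- and between 616 and 905 CPM in WT tissue. Mzb1 and Tnfrsf17 were too low to weigh in this sum, which could hide a change in them. The split and the median count each gene alike, also those that other cells carry, such as Sdc1. The part of plasma cell number in the immunoglobulin counts was not tested.

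B cell genes did not share it either. Of 15 tested 0 were called, 2 lay above 0 and 13 below, and the median log2 fold change was -0.62. Ms4a1, which encodes CD20, had 1.82 ± 1.18 CPM in Maf1-/- and 2.46 ± 1.31 CPM in WT tissue, and Cd79a, a signaling chain of the B cell receptor, had 0.52 ± 0.35 CPM in Maf1-/- and 0.99 ± 0.61 CPM in WT tissue (SD, n = 3 each). Both overlapped. Cd22, an inhibitory receptor of B cells, had a log2 fold change of -1.42 (SE 0.79), and the values above 0 were those of Cd72, another such receptor (1.04, SE 0.75), and Ly6d (3.33, SE 1.01), whose counts came mostly from KO1 and KO2. The 20 B cell genes together summed to 38.5, 78.3 and 37.4 CPM in Maf1-/-, against 62.8, 44.0 and 50.2 CPM in WT libraries.

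**Figure D5:**
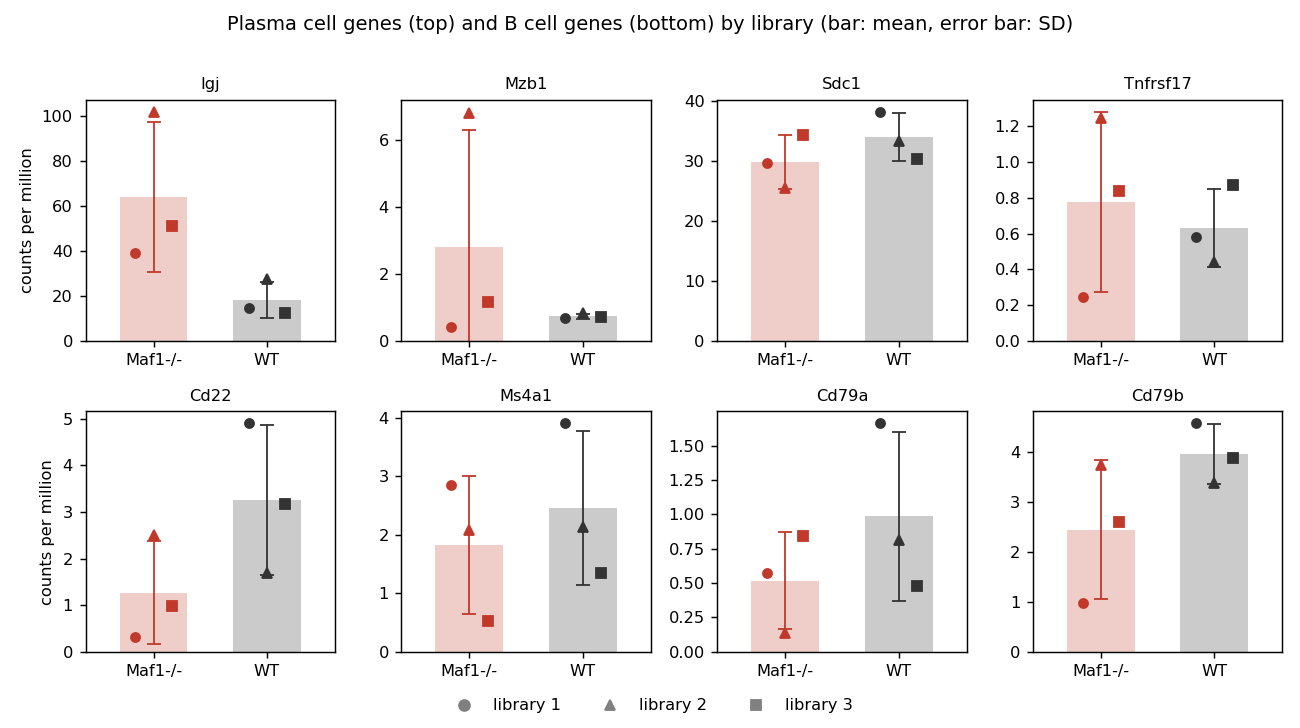
CPM of 4 plasma cell genes (top) and 4 B cell genes (bottom) in each library, with means as bars and SD over 3 mice as error bars. Igj separates the genotypes, Mzb1 is highest in KO2 (6.80 CPM), and the B cell genes have lower means in Maf1-/- mice with overlapping libraries.

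Genes that receive, assemble or attract antibodies and their cells passed in no case. None of 9 immunoglobulin receptor genes was called, and Pigr, which carries IgA and IgM across epithelia, had 6.45, 1.94 and 0.61 CPM in Maf1-/-, against 0.33, 0.50 and 0.71 CPM in WT libraries. Fcer1a, a chain of the IgE receptor, had 14, 21 and 11 counts in Maf1-/-, against 0, 5 and 6 counts in WT libraries (log2 fold change 2.58, SE 1.02, adjusted p = 1.00 in edgeR). Fcgr3, an IgG receptor gene, and Trim21, which encodes a receptor for antibody inside cells, had log2 fold changes of -0.26 and -0.36. Of 8 genes of assembly and class switching 0 were called, the smallest p being that of Ung, a uracil glycosylase (log2 fold change 0.46, SE 0.37), followed by Xrcc4 and Prkdc, of DNA end joining (-0.32 and -0.22).

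Of 6 survival and homing signals 0 were called. Cxcl13, a chemokine that attracts B cells, had 4.82, 12.5 and 9.40 CPM in Maf1-/-, against 10.7, 2.32 and 3.25 CPM in WT libraries, Cxcl12, which retains plasma cells in bone marrow, had a log2 fold change of -0.37 (SE 0.48), and Ltb, a lymphotoxin chain, had -0.49 (SE 0.66). Cxcl13 was high in WT1 as in the Maf1-/- libraries. Of 13 T cell genes 0 were called, 8 lay above 0 and 5 below, the median log2 fold change was 0.05, and the list summed to between 32.9 and 56.7 CPM in Maf1-/- and between 36.9 and 43.8 CPM in WT tissue. Those with the smallest p all lay above 0. Cd8a, the coreceptor of cytotoxic T cells, had 16, 22 and 16 counts in Maf1-/-, against 0, 6 and 7 counts in WT libraries (2.54, SE 0.99), while Cd3g, a chain of the T cell receptor complex, had 1.28 (SE 0.70) and Cd4, the helper coreceptor, 0.71 (SE 0.40). Of 5 genes of lymph node stroma 0 were called, and their list summed to between 15.3 and 26.9 CPM in Maf1-/- and between 14.0 and 21.7 CPM in WT tissue.

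Other tissue components varied between libraries too. Of 15 adipocyte genes 0 were called, with a median log2 fold change of -0.23, and Lep, which encodes leptin, had 150.9, 146.1 and 194.2 CPM in Maf1-/-, against 213.7, 356.4 and 836.9 CPM in WT libraries (adjusted p = 1.00 in edgeR). Adipoq, the gene of adiponectin, and Plin4, a coat protein of lipid droplets, had -0.48 (SE 0.29) and -0.49 (SE 0.33). Of 14 macrophage genes 0 were called, with a median of -0.11 and Emr1 (-0.33), Mpeg1 (-0.35) and Mertk (-0.28) having the smallest p. Of 7 red blood cell genes 0 were called, with a median of -1.28, and they summed to between 965 and 3360 CPM in Maf1-/- and between 1011 and 6557 CPM in WT tissue. Of 10 smooth muscle genes 0 were called, with a median of 1.87, and Cnn1 (3.88, SE 1.13), Des (2.05, SE 0.66) and Actg2 (3.65, SE 1.18) were high in KO1 and KO2 but not in KO3. Of 13 testis and epididymis genes 0 were called, with a median of -0.50, Akap4, Tnp2 and Tnp1 of sperm having their highest counts in WT2. The part of these components in the immunoglobulin counts was not tested.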

How the data were processed

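The authors deposited 1 expected count per gene and library, in whole reads. According to the submitters' processing notes, base calls were made with CASAVA, reads were aligned to mm9 with a 2012 release of GSNAP, and uniquely mapped reads were counted with HTSeq. Such counts miss reads that match several genes, and may miss reads over a rearranged join or a somatic change. The strand setting and the model of the authors' edgeR run are not given in the sources used here. From the deposited counts 2 lines that are no genes were dropped, and 6 columns of normalized counts and the authors' log2 fold changes, p-values and FDR were not used. Scores of Pol III loci were not used.

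Members and gene lists were chosen with earlier results of these data known. Libraries were grouped by genotype, 3 in each; the mice were separate animals. Levels are CPM, counts per 1000000 counts of the library, given as mean ± SD. The whole table passed through filterByExpr and TMM scaling before edgeR 4.0.16 (R 4.3.3) fitted genotype by quasi-likelihood, with Benjamini-Hochberg adjustment over 16101 genes and a threshold of 0.05. Standard errors belong to log2 fold changes. DESeq2 1.42.0, limma 3.58.1 (voom), RLE size factors, no filter, the replicate number as a block and leaving out each library were alternatives. Leaving out both libraries numbered 1 or 2 and adding genes without a name were chosen after seeing the data, as was the gamma share, in place of an IgA share. Residuals of same-numbered libraries correlated at 0.66, 0.36 and 0.34, all over the threshold of 0.1 set beforehand. Libraries of different number were not correlated for comparison, and KO1 and WT1 both lay apart on the first principal component. These correlations therefore do not show that the numbers pair the mice. Named were all C genes, the 5 V genes of each locus with the most counts, the 5 largest changes in each direction, and up to 3 genes per related list with the smallest p beside Igj, Mzb1, Ms4a1, Cd79a and Pigr. A further gene of this rule is not reported here. Mzb1 was found under an older symbol. Positions and annotation are those of mm9 (GENCODE M1), in which all 85 members were found; sequences were read from the same build. The fit was also run on simulated data, from which nothing is concluded here. Sums, shares and sequences were computed in Python 3.11.15 (numpy 2.4.6, pandas 2.3.3), with plots from matplotlib 3.10.9.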

Additional observations from a re-analysis of the deposited data

How the results depend on the processing

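The count of members called was 0 under every setting but DESeq2, which called 2, and 0 of the genes of the related lists were called under any setting. Leaving out each library in turn, the members called stayed at 0 to 0, and so did the list genes. The log2 ratio, Maf1-/- over WT, lay between 0.66 and 1.01 for the sum of all members (0.84 with all libraries), between 0.54 and 0.90 for C genes (0.70) and between 1.40 and 2.07 for V genes (1.70). The log2 ratio of V counts per C counts lay between 0.79 and 1.39 (1.00) and that of the effective number of kappa V genes between 0.73 and 1.41 (1.13). The difference in kappa share lay between -2.06 and 3.01 percentage points (0.98), so that its direction was not settled, and that in gamma share between 15.4 and 28.2 points (21.3). Adding the V and C genes without a name, which was chosen after seeing the data, lowered the log2 ratio of V sums to 1.17. The same addition lowered the log2 ratio of V counts per C counts to 0.47. Leaving out both libraries numbered 1 moved the gamma share difference to 34.1 points. With the replicate block, as the mean of log2 ratios within replicate numbers, the sums gave 0.85, 0.72 for C genes and 1.75 for V genes. The block changed no call. No IgA share was run, since Igha was not among the members. Depth limits the V genes most: 19 of 69 had fewer than 10 counts in all.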

Other observations

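A pair of V genes without a name in the table had lower counts in all Maf1-/- libraries than in any WT library, as did 1 other unnamed V gene, Ighv1-54, with 5, 2 and 0 counts in Maf1-/-, against 14, 8 and 13 counts in WT libraries. Of the 114 unnamed V genes, 3 lay below in this way, beside 3.72% of all genes, and 16 lay above, beside 2.21% of all genes. The pair was singled out after the values were seen, and nothing is read from these counts. Ighv11-2 (chr12:115286452-115286915) and Igkv14-126 (chr6:67846171-67846636) are known in mice as the heavy and light chain V genes of antibodies to phosphatidylcholine, made mainly by B-1 cells, a B cell type of body cavities. Ighv11-2 had 6, 0 and 3 counts in KO1 to KO3, against 58, 20 and 22 counts in WT1 to WT3. As a share of all heavy V counts, named and unnamed, it made up 1.40%, 0% and 0.561% in Maf1-/-, against 20.4%, 5.45% and 14.1% in WT libraries. Igkv14-126 made up 3.64%, 4.10% and 5.82% of all kappa V counts in Maf1-/-, against 33.3%, 15.2% and 35.6% in WT libraries, where it was the leading kappa V gene of each library. Neither overlapped between the genotypes. Of the 50-base stretches of Ighv11-2, 48.8% occur in another immunoglobulin gene, against 0% of those of Igkv14-126. Reads of Ighv11-2 could therefore be lost or assigned to the wrong gene. Ighv12-3, a further heavy V gene known from such antibodies, had 0, 0 and 3 counts in Maf1-/-, against 2, 1 and 4 counts in WT libraries, too few to compare. The kappa V gene Igkv4-91, a member looked at together with these genes, was not lower in Maf1-/- mice. It had 15, 14 and 14 counts in KO1 to KO3, against 0, 15 and 7 counts in WT1 to WT3. In CPM all Maf1-/- libraries lay above all WT libraries, while its shares of all kappa V counts overlapped.

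The kappa V gene Igkv3-2 (chr6:70648462-70649061), unnamed in the table like Ighv11-2 and Igkv14-126, went the opposite way to them. It had 26, 31 and 50 counts in KO1 to KO3, against 7, 1 and 3 counts in WT1 to WT3. With the unnamed genes added, the effective number of kappa V genes was 29.7, 29.0 and 26.6 in Maf1-/-, against 6.11, 18.8 and 6.57 in WT libraries. These genes include Igkv14-126, the leading kappa V gene of each WT library. Drawn down to 264 counts per library, 49.6, 52.0 and 57.0 genes would be seen in Maf1-/-, against 33.2, 52.0 and 41.0 in WT libraries. By this measure WT2 lay above KO1.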
